A study of Mus musculus with 20 samples.

Results

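The respiratory chain and ATP synthase subunits of the mouse kidney were described here across ischemia and reperfusion injury (IRI), ischemic pre-conditioning (IPC) and treatment with Hemin, an inducer of heme oxygenase. The members were taken by gene name from the array annotation, as every name that begins with Nduf, Uqcr, Cox4 to Cox8 or Atp5, together with Sdha, Sdhb, Sdhc and Sdhd. This gave 86 gene names, measured by 125 probes, among 27827 names on the array. Of these, 80 encode subunits, with 37 in complex I, 4 in complex II, 7 in complex III, 17 in complex IV and 15 in complex V. Ndufa4 was counted with complex I by its name, although its protein is now known as a subunit of cytochrome c oxidase. The other 6 names match the rule without encoding a structural subunit. They are Ndufaf1 and Ndufaf2, which help to assemble complex I, the coupling factor Atp5s, Atp5sl, Cox7a2l and Cox4nb, a neighbour of Cox4i1 in the genome that is now called Emc8.

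Total kidney RNA of male C57BL/6 mice aged 8 to 12 weeks was labelled with Cy3 and measured on 20 one-colour Agilent arrays of the mouse genome, 4 for each of 5 groups. Control mice had neither surgery nor treatment, so that the comparisons of operated groups with Control or with Hemin alone include the operation itself, and no sham operation was part of the 20 arrays. The IRI group had both renal pedicles clamped for 45 min and was killed after 6 h of reperfusion. The IRI+Hemin group received 25 mg/kg of Hemin by intraperitoneal injection 24 h before the same operation, the IPC+IRI group had 15 min of ischemia 7 days before it, and the Hemin group had the drug without surgery. The labels number the arrays of a group as replicates and do not say whether each is a separate animal, so the p-values measure the spread between these arrays.

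In the inner membrane of mitochondria, complexes I and II pass electrons from NADH and succinate to ubiquinone, complex III passes them on to cytochrome c, and complex IV reduces oxygen. Complexes I, III and IV pump protons, and complex V, the ATP synthase, uses the gradient to make ATP. Most subunits are encoded in the nucleus, and a few core subunits in mitochondrial DNA. Renal tubules, above all the proximal tubule and the thick ascending limb, are rich in mitochondria and depend on this pathway for solute transport.

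Levels are log2 values of the processed signal of a gene over the 75th percentile of its array, so that 0 lies at the percentile and a difference of 1 is a 2-fold change. A member counted as up-regulated, or higher, and down-regulated, or lower, where the limma fit gave an adjusted p below 0.05. All 8 proximal tubule markers were well above background on all 20 arrays. Their summed level ran from 9.20 to 9.41 in Control, from 8.79 to 9.36 in IRI, from 8.65 to 9.06 in IRI+Hemin, from 8.92 to 9.26 in IPC+IRI and from 9.16 to 9.24 in Hemin. Of them, 3 were lower in IRI vs Control, where 33.9% of all genes were, and 3 in IPC+IRI vs Hemin, where 22.8% were. The summed level of 7 leukocyte markers ran from 1.40 to 2.24 in Control, from 2.15 to 3.45 in IRI, from 2.76 to 3.94 in IRI+Hemin, from 3.44 to 5.26 in IPC+IRI and from 1.76 to 2.46 in Hemin. The intercalated cell markers Atp6v1b1, Slc26a4 and Slc4a1 were higher in IPC+IRI vs IRI, by 0.72, 0.54 and 1.06, where 26.3% of all genes were. Atp6v1b1 and Slc4a1 were lower in IRI vs Control, and Slc26a4 was not called there. Of the distal tubule markers, Calb1 and Pvalb were lower in IRI+Hemin vs IRI, where 18.1% of all genes were, and Slc12a3 was not called. In whole kidney RNA, fewer cells of a type and less RNA per cell cannot be told apart, and the part of these cell types in the results was not tested.

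The arrays of each group shared a slide of their own, and the file headers give 3 scan days, the first for Control and IRI, the next for IRI+Hemin and the last for Hemin and IPC+IRI. Slide and group cannot be told apart. IRI vs Control and IPC+IRI vs Hemin were therefore the only comparisons of groups scanned on the same day, and in each 1 group had IRI and the other did not. They are not the same contrast, since IPC+IRI vs Hemin also sets pre-conditioned kidneys without the drug against kidneys with it. It was added after the data were seen.

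Few members were called in the comparisons within a scan day. In IRI vs Control, 4 of 82 members tested were lower and 0 were higher by limma, where 51.0% of all genes tested were called, 17.1% as higher and 33.9% as lower. At an unadjusted p below 0.05 the members gave 0 higher and 5 lower. The 4 members were Cox7c, Ndufa6, Atp5s and Atp5sl, and only the first 2 of them are subunits. The median log2 fold change was -0.14 over the members and -0.17 over all genes. For 80 of the 82 members the 95% interval of the fold change lay within 2-fold in both directions, against 59.4% of all genes. None of the 20 nuclear subunits listed as core subunits (Ndufs1, Ndufv1, Sdha, Uqcrc1, Cox4i1, Atp5a1 and Atp5b among them) was called. The list leaves out the subunits encoded in mitochondrial DNA, and Cyc1 of complex III was listed with the electron carriers.

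In IPC+IRI vs Hemin, 3 of 83 members were lower and 0 were higher by limma, where 36.0% of all genes were called. These groups differ in IRI, pre-conditioning and Hemin at once, and the parts of the 3 cannot be told apart. At an unadjusted p below 0.05 there were again 3 lower and 0 higher. The 3 members were Cox6a2, Atp5s and Atp5sl, so Cox6a2 was the single subunit among them. The median was -0.02 over the members and -0.15 over all genes, and the interval lay within 2-fold for 81 members. None of the 20 core subunits was called here either. These comparisons share no array, and Atp5s and Atp5sl were lower in both, which is 50% of the former list of called members and 66.7% of the latter. Over all genes, 4678 were called in the same direction in both, which is 51.8% and 70.1% of those called, so that the members' shares were near the background. The call of Atp5sl in IRI vs Control (-0.26, adjusted p = 0.0466) was lost under 15 of 21 alternatives, and that of Atp5s was lost under 4. The call of Atp5s in IPC+IRI vs Hemin was lost with normexp background correction and with the deposited matrix, where Atp5sl turned to 0.113.

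The count for IRI vs Control depended on the processing. Most members lay slightly below Control, since 71 of 82 had a fold change under 0, and 11007 of 17725 genes did. This rested in part on Control replicate 2, with a member median of 5.04, and IRI replicate 4, with 4.49. The other Control arrays had member medians of 4.80, 4.72 and 4.63, and the other IRI arrays 4.60, 4.93 and 4.83. With quantile normalization 29 members were lower, where 47.7% of all genes were called, and with the percentile taken over probes above background on all arrays 14 were, where 54.3% were. With the deposited log2 matrix, whose blank values left 62 members to test, 28 were lower, where 48.4% of all genes were called and their median was -0.33. None was higher under these settings. Leaving out Control replicate 1, Control replicate 3 or IRI replicate 1 left 2 members lower.

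**Figure D1:**
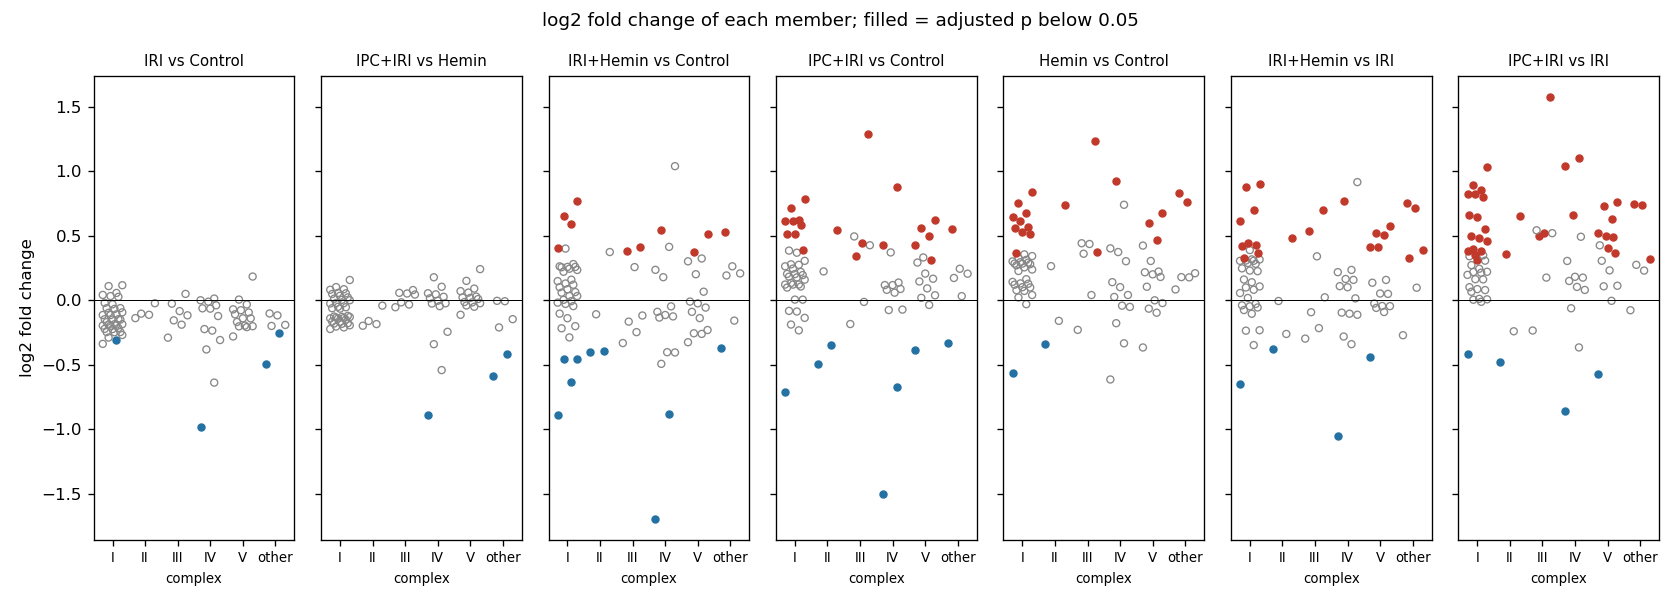
The log2 fold change of each member is shown for 7 comparisons, with 1 point for each gene tested, by complex, and with the names that are no structural subunit as "other". Filled points passed an adjusted p below 0.05 (red higher, blue lower). The 2 panels on the left compare groups scanned on the same day and hold 4 and 3 filled points, and the others hold between 19 and 40.

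Cox7c, a small nuclear-encoded subunit of cytochrome c oxidase, was the member that changed most in IRI vs Control. Its levels were 3.64, 3.61, 3.74 and 3.39 on the Control arrays and 2.69, 2.96, 2.92 and 1.89 on the IRI arrays. With IRI+Hemin they were 2.78, 3.098, 2.75 and 2.24. With IPC+IRI they were 3.82, 3.55, 3.41 and 3.84, and with Hemin 4.14, 3.57, 3.88 and 4.01. All 8 arrays of IRI and IRI+Hemin lay below all 12 arrays of the other groups. Cox7c was down-regulated by 0.98 ± 0.21 (SE) on the log2 scale in IRI vs Control, written as a fold change of 0.506 (limma, adjusted p = 0.00099). It was also lower in IRI+Hemin vs Control (-0.88 ± 0.22, adjusted p = 0.00207) and higher in IPC+IRI vs IRI (1.04 ± 0.21, adjusted p = 0.000888). The difference of IPC+IRI from Control was 0.06, with a 95% interval from -0.39 to 0.51, and that of IRI+Hemin from IRI was 0.10, from -0.35 to 0.55. The fall in IRI vs Control was called under each of the alternatives run, with values between -1.17 and -0.74. It rests on 1 probe, which the array annotation places at chr13:86184486-86185363 (mm9).

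Ndufa6, an accessory subunit of complex I, had levels of 4.40, 4.61, 4.49 and 4.28 in Control and 4.06, 4.31, 4.26 and 3.93 in IRI. The groups overlapped, and the difference of -0.31 ± 0.12 passed narrowly (adjusted p = 0.0429), and the call was lost under 12 of 21 alternatives. Atp5s, the coupling factor B of the ATP synthase, stood at -0.09, 0.59, -0.09 and -0.17 in Control and at -0.48, -0.24, -0.45 and -0.55 in IRI, so that the groups did not overlap. Its levels in IPC+IRI were 0.46, 0.27, 0.22 and 0.28, all below those in Hemin of 0.96, 0.84, 0.88 and 0.90. The fold changes were -0.49 ± 0.14 in IRI vs Control (adjusted p = 0.00768) and -0.59 ± 0.14 in IPC+IRI vs Hemin (adjusted p = 0.00385). The 2 probes of Atp5s gave -0.60 and -0.15 in the former.

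Promoters are shown for Cox7c, Ndufa1, Ndufa10 and Sdha, as 4 examples whose levels differed between groups. They were chosen after their values were seen, and the table of RefSeq promoters (build GRCm38.p6) also holds other members described here. Each is 250 bases upstream of the annotated start, 5′ to 3′, and capitals mark the letters searched for, on both strands, with overlaps allowed, so that a stretch in capitals can be the reverse complement. These were GCNTGCGC for the core of the nuclear respiratory factor 1 site, CCGGAA for ETS factors such as GABP, AANATGGC for YY1, TNAAGGTCA for the estrogen-related receptors and ACGTG for the hypoxia response core.
Cox7c: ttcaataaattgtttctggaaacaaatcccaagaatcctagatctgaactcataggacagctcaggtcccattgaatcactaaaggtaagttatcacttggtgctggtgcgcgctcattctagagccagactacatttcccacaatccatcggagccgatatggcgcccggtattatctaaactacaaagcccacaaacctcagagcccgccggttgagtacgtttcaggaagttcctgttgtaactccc
Ndufa1: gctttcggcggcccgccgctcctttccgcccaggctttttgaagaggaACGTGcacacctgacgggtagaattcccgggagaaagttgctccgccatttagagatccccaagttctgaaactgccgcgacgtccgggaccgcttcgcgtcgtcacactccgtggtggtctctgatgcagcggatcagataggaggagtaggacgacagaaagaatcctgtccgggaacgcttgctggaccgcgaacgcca
Ndufa10: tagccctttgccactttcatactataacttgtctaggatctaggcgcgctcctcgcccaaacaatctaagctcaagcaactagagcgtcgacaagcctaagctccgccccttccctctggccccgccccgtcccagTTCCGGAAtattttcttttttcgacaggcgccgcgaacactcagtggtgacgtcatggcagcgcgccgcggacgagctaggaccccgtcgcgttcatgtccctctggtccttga
Sdha: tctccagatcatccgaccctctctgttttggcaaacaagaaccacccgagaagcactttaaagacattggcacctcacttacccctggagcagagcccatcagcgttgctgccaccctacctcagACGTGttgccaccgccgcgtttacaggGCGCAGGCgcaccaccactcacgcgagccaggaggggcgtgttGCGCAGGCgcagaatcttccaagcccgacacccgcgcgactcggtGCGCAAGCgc

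In Cox7c, at chr13:86046796-86047045, none of these letters was found. The window of Ndufa1, at chrX:37191239-37191488, held 1 match of ACGTG, that of Ndufa10, at chr1:92473759-92474008, held CCGGAA on both strands in overlap, and that of Sdha, at chr13:74350241-74350490, held 3 matches of GCNTGCGC and 1 of ACGTG. All 4 are on the minus strand. Of 71 members in the table, 18 (25.4%) held the letters of nuclear respiratory factor 1, as did 8.42% of 27025 promoters. For CCGGAA these shares were 28.2% and 12.2%, for ACGTG 22.5% and 16.6%, for AANATGGC 5.63% and 3.93%, and for TNAAGGTCA 2.82% and 1.14%. A match describes the letters and is no evidence of binding.

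The comparisons across scan days gave between 19 and 40 member calls, and in 4 of these 5 comparisons the share of members called was below that of all genes. The exception was IPC+IRI vs IRI, in which 36 of 82 members were higher and 4 were lower, where 44.1% of all genes were called, 26.3% as higher. The higher members were 17 subunits of complex I, 2 of complex II, 3 of complex III, 3 of complex IV, 8 of complex V and 3 names that are no subunit. The median fold change was 0.32 over the members and 0.09 over all genes. By complex, it was 0.31 for complex I, 0.06 for complex II, 0.52 for complex III, 0.18 for complex IV and 0.41 for complex V. No test was run between the complexes. The range within each was wider than the differences between their medians, from -0.42 to 1.03 within complex I and from -0.23 to 1.58 within complex III. Without IPC+IRI replicate 1 the number of higher members was 23, and without IRI replicate 2 that of lower members was 2.

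In IRI+Hemin vs IRI, 22 of 84 members were higher and 4 lower, against 44.5% of all genes called, 26.3% as higher and 18.1% as lower. The median was 0.14 over members and 0.08 over all genes. This comparison and IPC+IRI vs IRI share the IRI arrays. Without IRI replicate 1 the number of higher members was 14, and without IRI replicate 4 or IRI+Hemin replicate 4 the lower members were 8 and 7. With quantile normalization 23 were higher and 8 lower, where 43.9% of all genes were called.

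In Hemin vs Control, 19 of 83 members were higher and 2 lower, where 36.1% of all genes were called, 18.5% as higher and 17.6% as lower. The medians were 0.24 and 0.06. In IPC+IRI vs Control, 21 of 82 members were higher and 7 lower, against 56.0% of all genes, and in IRI+Hemin vs Control 10 of 84 were higher and 9 lower, against 57.6%. These 3 comparisons share the Control arrays. The member medians were 0.19 in IPC+IRI vs Control and 0.02 in IRI+Hemin vs Control, where those of all genes were -0.09 and -0.10. Quantile normalization gave 18 higher and 5 lower members in Hemin vs Control, 17 and 13 in IPC+IRI vs Control and 8 and 28 in IRI+Hemin vs Control, where 38.1%, 56.1% and 57.2% of all genes were called. With no normalization between arrays, 73, 60 and 47 were higher and 0, 1 and 1 lower, where 50.1%, 45.1% and 47.1% of all genes were called in the same order of comparisons. Without Control replicate 2 the numbers of higher members were 32, 33 and 23. Leaving out Control replicate 3, Control replicate 4 or IRI+Hemin replicate 4 gave 5, 5 and 6 higher members in IRI+Hemin vs Control, and leaving out Control replicate 3, Control replicate 4 or Hemin replicate 3 left 1 lower member in Hemin vs Control. Without Control replicate 3, 14 members were higher in IPC+IRI vs Control.

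**Figure D2:**
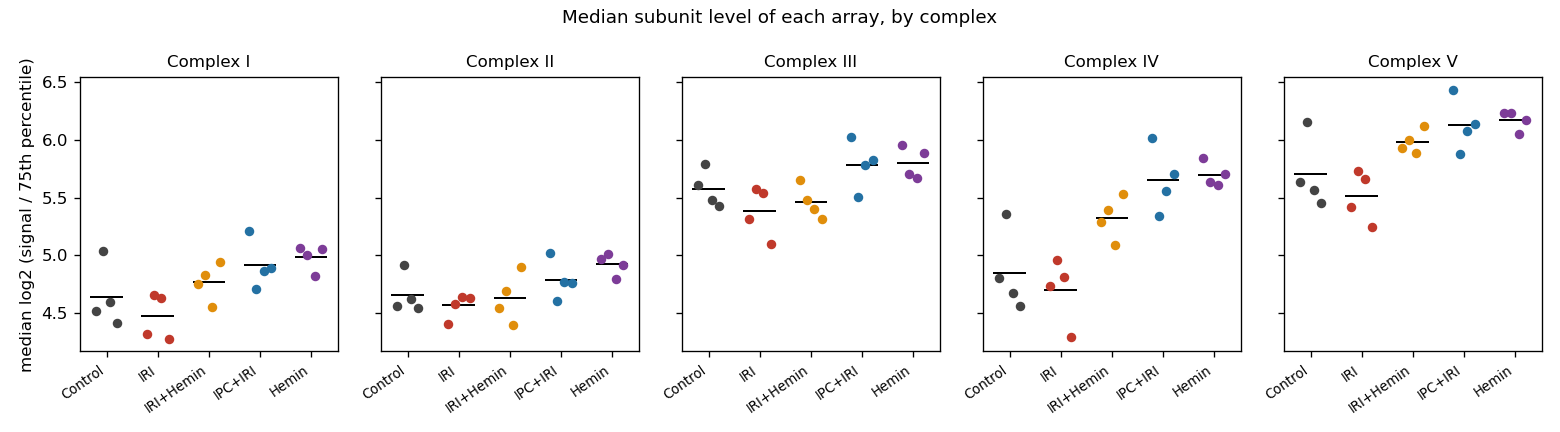
Each point is 1 array, and gives the median log2 level over the subunits of a complex that were well above background on all arrays. Lines are the means of 4 arrays, and the groups are on the horizontal axis. In complex IV the medians ran from 4.29 to 4.96 in IRI and from 5.34 to 6.02 in IPC+IRI, and Control replicate 2, at 5.36, lay above the other Control arrays in each complex. The complex IV median is the level of a single gene on each array. This gene was Cox7a2 on every IPC+IRI array and on IRI replicate 4, and Cox7b on the other IRI arrays. The ranges therefore do not describe complex IV as a whole.

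Among the Control arrays, replicate 2 had the highest levels. Its median over the 82 members above background on all arrays was 5.04, where the others had 4.80, 4.72 and 4.63. The medians were 4.60, 4.93, 4.83 and 4.49 in IRI, 4.78, 4.90, 4.65 and 5.07 in IRI+Hemin, 5.28, 4.85, 5.06 and 5.09 in IPC+IRI and 5.08, 5.12, 4.91 and 5.19 in Hemin. The same array was the dimmest of all, with a 75th percentile of 147 intensity units, where the other 19 arrays had between 162 and 358. In every group except IRI the array with the lowest percentile of its group had the highest member median, and in all 5 groups the array with the highest percentile had the lowest. Across the 20 arrays, as deviations from the group means, 77 of 81 members with complete values went down as the log2 percentile went up, with a median Pearson's r of -0.72 across arrays. Over the 14538 genes above background on all arrays with complete values, 62.8% did so, with a median r of -0.16. The points share the percentile by which every level was divided, and r is given as a description. The groups did not follow this order. IPC+IRI and Hemin had higher percentiles (medians of 254 and 273 units) and higher member levels than Control and IRI (medians of 199.7 and 198.9 units). IRI+Hemin had the highest median percentile, of 283 units, and a median member level of 4.84, where IPC+IRI and Hemin had 5.08 and 5.10 and Control and IRI 4.76 and 4.71. The part of the percentile in the comparisons was not tested.

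**Figure D3:**
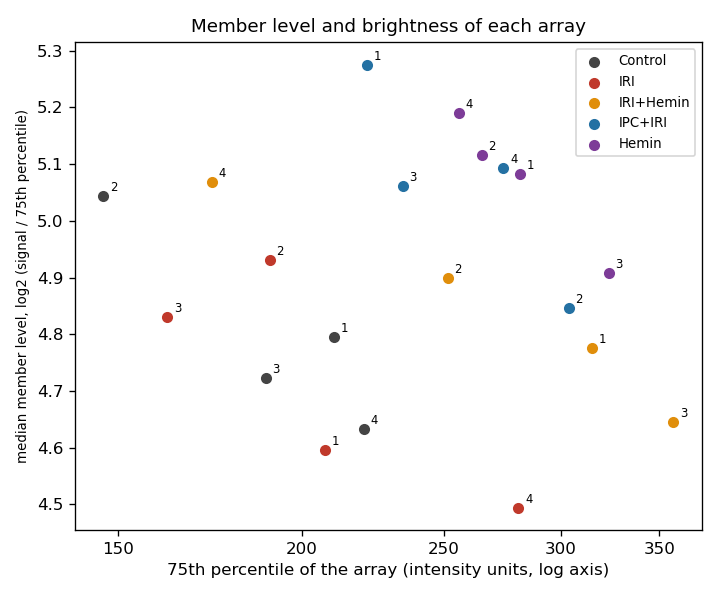
The median log2 level of the 82 members above background on all arrays is plotted for each array against its 75th percentile in intensity units, on a log axis, with replicate numbers beside the points. Within each group the array with the highest percentile has the lowest median, while the IPC+IRI and Hemin points lie above the Control and IRI points of similar brightness.

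Among the subunits of complex III, Uqcrb, which lies near the ubiquinone site of the complex, changed most. Its levels were 3.73, 4.51, 3.80 and 3.63 in Control, 3.53, 3.82, 3.69 and 3.47 in IRI and 4.26, 4.45, 4.18 and 4.42 in IRI+Hemin. The IPC+IRI arrays had 5.61, 4.84, 5.16 and 5.21 and the Hemin arrays 5.24, 5.12, 5.10 and 5.15, and all of these lay above every array of the other 3 groups. The fold change was 1.58 ± 0.17 on the log2 scale in IPC+IRI vs IRI (limma, adjusted p = 5.93e-06), which is 2.98-fold. In Hemin vs Control it was 1.23 ± 0.17 (adjusted p = 0.00011), and in IPC+IRI vs Hemin 0.05, with an interval within 2-fold. The array annotation places its probe at chr13:67001666-67001725 (mm9). Uqcrc2, a core protein of complex III, was higher by 0.53 in IRI+Hemin vs IRI and by 0.50 in IPC+IRI vs IRI, and the other core protein, Uqcrc1, was called in no comparison, with values between -0.30 and 0.05. The Rieske protein Uqcrfs1 was not called either, with 0.54 in IPC+IRI vs IRI (adjusted p = 0.0528).

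In complex I the largest differences were in accessory subunits. Ndufa1, which is needed for the assembly of the complex, had levels of 5.01, 5.83, 4.9998 and 4.80 in Control, 4.84, 5.18, 5.07 and 4.58 in IRI, and 5.77, 5.87, 5.69 and 5.93 in IRI+Hemin. In IPC+IRI they were 6.27, 5.76, 5.91 and 5.86, and in Hemin 6.04, 5.88, 5.84 and 5.90. All 12 of these arrays were above the IRI arrays and above 3 of the 4 Control arrays, and Control replicate 2 overlapped them. The differences were 0.90 ± 0.18 in IRI+Hemin vs IRI (adjusted p = 0.000749), 1.03 ± 0.18 in IPC+IRI vs IRI (adjusted p = 0.00025) and 0.75 ± 0.18 in Hemin vs Control (adjusted p = 0.00429). Ndufb3, another accessory subunit, was higher by 0.70, 0.82 and 0.84 in the same order of comparisons. Ndufa8, an accessory subunit of the intermembrane side, was higher by 0.89 in IPC+IRI vs IRI (adjusted p = 0.00129), with group ranges from 3.85 to 4.37 in IRI and from 4.83 to 5.36 in IPC+IRI.

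Of the core subunits of complex I, Ndufs1, Ndufs3, Ndufs7 and Ndufv2 were called in no comparison, with differences in IRI vs Control of -0.06, -0.10, -0.20 and -0.19. Ndufs8, which carries iron-sulfur clusters, was lower in IRI+Hemin vs Control by 0.45 (adjusted p = 0.00725). Ndufv1, which binds NADH, was higher there by 0.41 (adjusted p = 0.0215), and Ndufv3, a small accessory subunit beside it, fell by 0.46 (adjusted p = 0.00485). Without normalization between arrays, where the median of all genes was 0.38 in this comparison, Ndufs8 and Ndufv3 turned to 0.031 and 0.026, and the call of Ndufv1 was lost under 7 of 20 alternatives.

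Ndufa10, an accessory subunit with a nucleoside kinase fold, was highest in IRI+Hemin. It had 3.95, 4.11, 3.87 and 4.21 there, against 3.23, 3.59, 3.11 and 3.14 in Control and 2.92, 3.04, 3.14 and 3.51 in IRI. The IRI+Hemin arrays lay above all arrays of both groups. The levels were 3.70, 3.55, 3.67 and 3.69 in IPC+IRI and 3.88, 4.00, 3.64 and 3.61 in Hemin. The fold change in IRI+Hemin vs Control was 0.77 ± 0.14 (adjusted p = 0.000149), and it was called under each of the alternatives run.

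Ndufab1, the mitochondrial acyl carrier protein, fell in IRI+Hemin vs Control, by 0.89 on the log2 scale (SE 0.17, adjusted p = 0.000251). Its levels there were 2.49, 2.72, 2.44 and 1.74, all below the 3.38, 3.19, 3.23 and 3.17 of Control. In IRI they were 3.08, 3.16, 3.15 and 2.59, in IPC+IRI 3.32, 3.16, 3.01 and 3.15, and in Hemin 3.52, 3.20, 3.32 and 3.33. Its 3 probes that were above background on all arrays gave -0.51, -0.92 and -0.80 in IRI+Hemin vs Control. Ndufa3, an accessory subunit of the membrane arm, was lower in IRI+Hemin, IPC+IRI and Hemin vs Control, by 0.64, 0.71 and 0.57, all called. Its probes disagreed, since 1 gave values of 0.44, 0.34 and -0.16 and the other -0.64, -0.71 and -0.57 in these comparisons.

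The 4 subunits of succinate dehydrogenase did not move together. The flavoprotein Sdha had levels of 3.71, 3.47, 3.84 and 3.89 in Control and 3.66, 3.56, 3.76 and 3.83 in IRI. In IRI+Hemin they were 3.35, 3.35, 3.26 and 3.36, in IPC+IRI 3.46, 3.12, 3.096 and 3.25, and in Hemin 3.40, 3.47, 3.33 and 3.35. The first 2 groups thus lay above the last 3, apart from Control replicate 2. Sdha was lower in IPC+IRI vs IRI by 0.47 ± 0.11 (adjusted p = 0.00158) and in IPC+IRI vs Control by 0.50 ± 0.11 (adjusted p = 0.000702). Of its 3 probes, at chr13:74460146-74460205, chr13:74465756-74465815 and chr13:74486662-74486720 (mm9), the last gave 0.16 in IPC+IRI vs Control where the others gave -0.34 and -0.66.

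Sdhb, the iron-sulfur subunit, went the other way. It stood at 4.61, 5.53, 4.70 and 4.61 in Control and at 4.56, 4.75, 4.79 and 4.90 in IRI, against 5.67, 5.24, 5.32 and 5.40 in IPC+IRI and 5.50, 5.65, 5.54 and 5.72 in Hemin. Without Control replicate 2, the Control and IRI arrays all lay below those of the other groups, IRI+Hemin included (5.16 to 5.42). The rise was 0.66 ± 0.17 in IPC+IRI vs IRI (adjusted p = 0.00397) and 0.74 ± 0.17 in Hemin vs Control (adjusted p = 0.00253). Of the membrane anchors, Sdhc was lower in IPC+IRI vs Control by 0.34, and Sdhd was lower in IRI+Hemin vs Control by 0.40 and higher in IPC+IRI vs IRI by 0.36. Without normalization between arrays the first 2 of these turned to 0.094 and 0.085, and the last was no longer called under 10 of 21 alternatives. None of the 4 was called in IRI vs Control or in IPC+IRI vs Hemin.

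**Figure D4:**
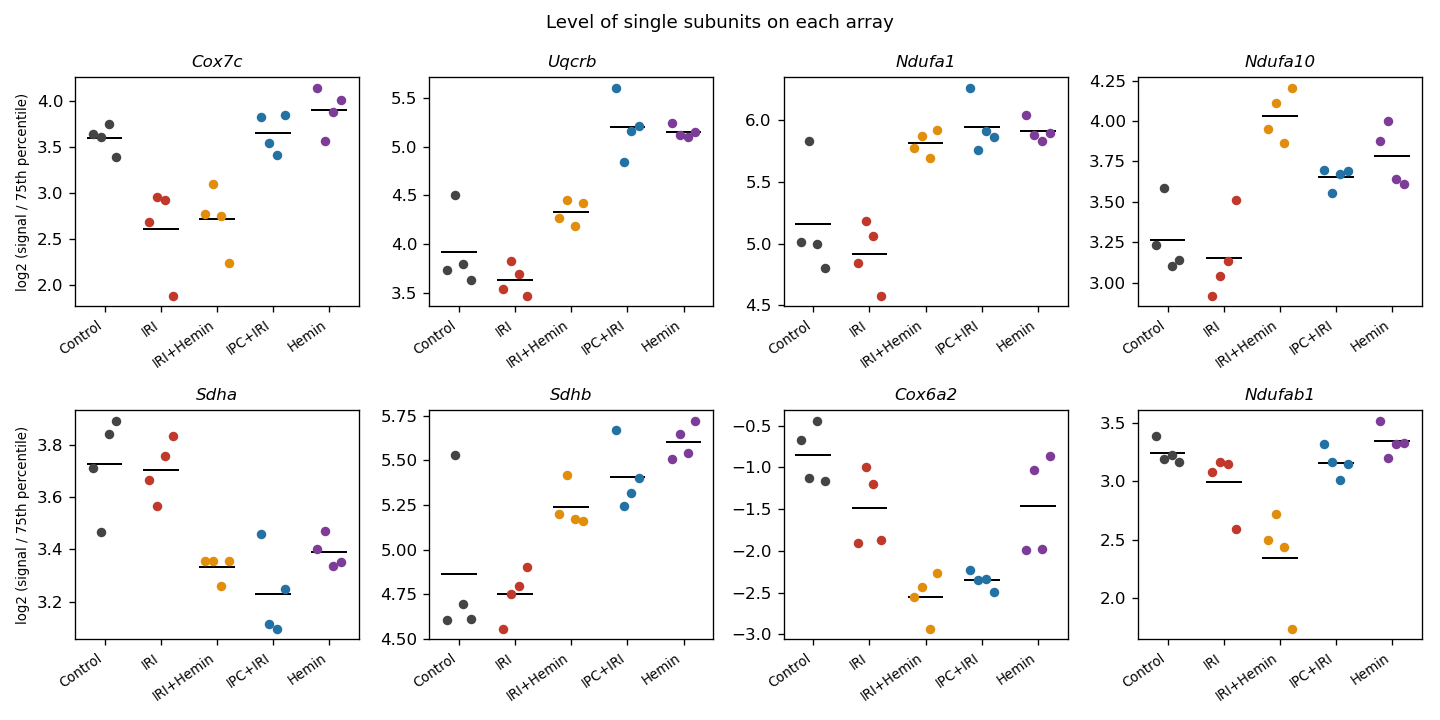
The log2 level of 8 members is shown on each of the 20 arrays, with lines at the means of 4 arrays. Cox7c is low in IRI and IRI+Hemin, Uqcrb, Ndufa1 and Sdhb are high in the groups scanned later, Sdha is low in them, Cox6a2 is low in IRI+Hemin and IPC+IRI, Ndufa10 is highest in IRI+Hemin, and Ndufab1 is lowest there, where 1 IRI array overlaps.

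In complex IV, Cox7a2, the isoform of most tissues, was higher in IRI+Hemin vs IRI (0.77 ± 0.18, adjusted p = 0.00277), in IPC+IRI vs IRI (1.10 ± 0.18, adjusted p = 0.000171) and in Hemin vs Control (0.92 ± 0.19, adjusted p = 0.00122). Its 2 probes gave 0.84 and 0.67 in the first of these, 1.10 and 1.11 in the next and 0.89 and 0.98 in the last. Its counterpart Cox7a1, an isoform of heart and skeletal muscle and of brown fat, was called in no comparison, and its differences from Control were between -0.49 and -0.05. Cox4i1, Cox5a, Cox5b, Cox6a1, Cox6b1, Cox7b and Cox8a were called in no comparison either. The differences of Cox4i1 ran from -0.02 to 0.18 over the 7 comparisons, and those of Cox8a from -0.18 to 0.11. Cox6b2, the isoform of the testis, was lower in IPC+IRI vs Control by 0.67 (adjusted p = 0.00513), and Cox6b1, its counterpart in most tissues, had 0.37 there.

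Cox6a2, the isoform of heart and skeletal muscle, had the largest fall among the called members, in IRI+Hemin vs Control. Its levels were -0.67, -1.13, -0.44 and -1.17 in Control, -1.90, -1.0001, -1.19 and -1.87 in IRI and -2.55, -2.43, -2.93 and -2.27 in IRI+Hemin. They were -2.22, -2.35, -2.34 and -2.49 in IPC+IRI and -1.99, -1.03, -1.98 and -0.86 in Hemin. The IRI+Hemin and IPC+IRI arrays lay below all others. The fold change was -1.69 ± 0.27 in IRI+Hemin vs Control (adjusted p = 4.12e-05), -1.50 ± 0.27 in IPC+IRI vs Control (adjusted p = 0.000139) and -0.89 ± 0.27 in IPC+IRI vs Hemin (adjusted p = 0.015). The last was no longer called with normexp background correction, without Hemin replicate 2 or without Hemin replicate 4. Of 5 striated muscle markers, Acta1 was above background on 20 arrays, Myh1 on 16, Tnnt3 on 10, Myh4 on 3 and Ckm on 0, and their summed level ran from -3.21 to -1.70 over all arrays. Myh1 was lower in IPC+IRI vs Control by 0.80 (adjusted p = 0.0106). Tnnt3 was higher in IRI+Hemin vs IRI by 1.18 (adjusted p = 0.0267), where the fold change of Cox6a2 was -1.055 on the log2 scale (adjusted p = 0.00385). The part of muscle in the result was not tested. The gene lies at chr7:135349160-135349219 by its probe (mm9).

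Among the dim isoforms, Cox7b2 and Cox8c were above background on 0 of 20 arrays and have no measured level here. Cox4i2, the lung isoform, was above background on 8 arrays, of which 3 were IRI+Hemin and 3 Hemin arrays, and was called in no comparison. Cox8b, the isoform of muscle and brown fat, was above background on 9 arrays and varied most within groups. Its levels were -5.28, 2.27, -5.04 and -6.14 in Control and 1.19, -6.44, -6.37 and -1.54 in IRI. They were -2.48, 0.87, -6.16 and -4.77 in IRI+Hemin, -6.83, -3.30, -6.09 and -7.39 in IPC+IRI and 0.41, -6.97, -1.75 and -5.50 in Hemin. Ucp1, the uncoupling protein of brown fat, was at -5.64, 2.96, -6.87 and -6.87 in Control and at 0.43, -6.66, -6.55 and -1.22 in IRI. In each of the 5 groups it was highest on the same array as Cox8b. Adipoq, the adipocyte hormone adiponectin, was at 2.46 on Control replicate 2 and between -7.08 and -6.78 on the other Control arrays. Control replicate 2 thus carried the highest Cox8b, Ucp1 and Cidea levels of all 20 arrays. IRI replicate 1, with the highest Adipoq level of all arrays, had a member median of 4.60, the second lowest. Their part in the member levels was not tested.

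**Figure D5:**
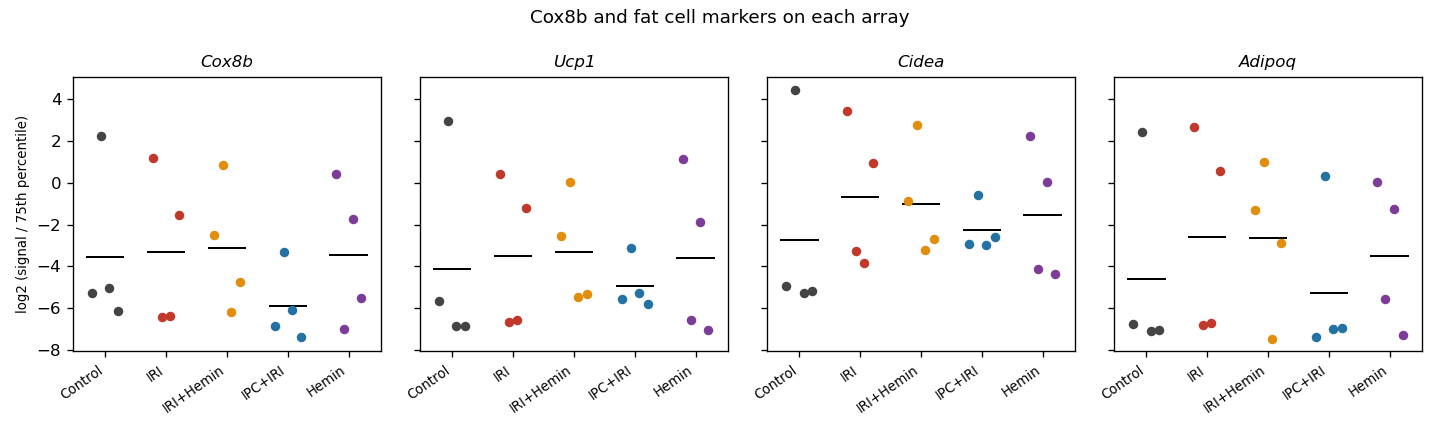
The log2 level of Cox8b and of the fat cell markers Ucp1, Cidea and Adipoq is plotted for each array, with lines at the means of 4 arrays and the 5 groups on the horizontal axis. Control replicate 2 is far above the other 3 Control arrays in each panel.

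In complex V, Atp5a1 and Atp5b, which form the catalytic head, were called in no comparison, with differences between -0.14 and 0.11 and between -0.07 and 0.14. In the central stalk the subunits differed. Atp5c1, its gamma subunit, was higher in IPC+IRI vs IRI (0.73 ± 0.15, adjusted p = 0.000755) and in Hemin vs Control (0.60 ± 0.15, adjusted p = 0.00475). Its levels were 6.64, 7.30, 6.73 and 6.57 in Control, 6.63, 6.85, 6.85 and 6.49 in IRI, 7.64, 7.27, 7.42 and 7.39 in IPC+IRI and 7.42, 7.35, 7.32 and 7.55 in Hemin. All arrays of IPC+IRI and Hemin lay above IRI, and of the Control arrays only replicate 2 reached the lowest IPC+IRI array. Atp5d, the delta subunit of the same stalk, was lower in IPC+IRI vs IRI, by 0.57 (SE 0.14, adjusted p = 0.00346). The membrane subunits Atp5j2 and Atp5l rose by 0.76 and 0.49 in IPC+IRI vs IRI, where the call of Atp5l was lost under 7 of 21 alternatives and that of Atp5j2 with the deposited matrix. Of the 3 genes for the c-ring, Atp5g3 was higher there by 0.50, and Atp5g1 and Atp5g2 had differences of 0.31 and -0.00.

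Of the names that encode no subunit, Ndufaf2 was higher in IRI+Hemin vs IRI by 0.72, in IPC+IRI vs IRI by 0.75 and in Hemin vs Control by 0.77. Atp5s, which was lower in both same-day comparisons, was higher by 0.83 in Hemin vs Control (adjusted p = 0.000398). Ndufaf1 was higher in IRI+Hemin vs IRI by 0.39, Cox7a2l by 0.33, and Cox4nb was lower in IRI+Hemin vs Control by 0.37. The call of Cox4nb was lost under 11 of 21 alternatives, and without normalization it turned to 0.112.

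The 4 arrays of a group did not overlap with those of the other for 5 of 82 members in IRI vs Control, where 46.1% of all genes tested did not, and for 4 of 83 in IPC+IRI vs Hemin, against 38.7%. In IPC+IRI vs IRI the number was 33 of 82, against 37.8%, and in IRI+Hemin vs IRI 22 of 84, against 38.9%. It was 15 of 83 in Hemin vs Control, against 37.6%, 11 of 84 in IRI+Hemin vs Control, against 47.3%, and 11 of 82 in IPC+IRI vs Control, against 45.1%.

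In all, 50 members were called in at least 1 of the 7 comparisons of groups, which is 59.5% of the 84 that were tested, where 86.1% of all genes tested were. The 36 called in none include Cox7b2 and Cox8c, which were below background. The interaction asked whether the effect of IRI differed with and without Hemin, as IRI+Hemin minus Hemin against IRI minus Control. Here 0 of 84 members were called by limma, with 5 at an unadjusted p below 0.05, all lower, and 7.79% of all genes were called, 5.84% as higher and 1.96% as lower. Leaving out IRI replicate 4 gave 2 calls, and leaving out Control replicate 2, IRI+Hemin replicate 2 or IRI+Hemin replicate 4 gave 1 each.

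The only subunits of mitochondrial DNA named on the array were COX2 and CYTB. The levels of COX2 were 6.90, 7.22, 6.96 and 6.75 in Control, 6.89, 6.87, 7.08 and 6.52 in IRI and 7.14, 7.58, 6.91 and 8.36 in IRI+Hemin, where replicate 4 was the highest of all arrays. It was higher in IRI+Hemin vs IRI by 0.66, and CYTB was called in no comparison. Both had differences in IRI vs Control that did not pass, of -0.12 and -0.17.

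Of 20 assembly factors outside the rule, 2 were higher and 6 lower in IRI vs Control, which is 40.0% where 51.0% of all genes were called. The number was 1 higher and 8 lower in IPC+IRI vs Hemin, which is 45.0% where 36.0% of all genes were called. Bcs1l, the chaperone of the Rieske protein of complex III, fell by 0.78 and by 0.60 in these, and Oxa1l, an insertase of the inner membrane, fell by 0.36 and by 0.55. Cox19 and Tmem126b were also lower in both, and Ttc19 was higher in both, so that 5 factors changed alike in both comparisons, which is 62.5% and 55.6% of those called, where the shares over all genes were 51.8% and 70.1%. Among the genes for electron carriers and ubiquinone synthesis, 2 of 13 were called in IRI vs Control, where Coq3 fell by 1.28 and Coq9 by 0.49. For Coq3 the groups overlapped, and it was not above background on every array compared. Again 2, of 12, were called in IPC+IRI vs Hemin, where Coq5 fell by 0.38 and Coq9 by 0.58. Cycs, which encodes cytochrome c, was 0.03 and 0.05 in the same comparisons, uncalled, and rose by 0.90 in IPC+IRI vs IRI.

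Of the genes for the citric acid cycle and pyruvate dehydrogenase, 0 of 16 were called by limma in IRI vs Control. In IPC+IRI vs Hemin it was also 0 of 16, where 51.0% and 36.0% of all genes were called in these comparisons. At an unadjusted p below 0.05 there were 0 and 1. In Hemin vs Control 4 were higher and 3 lower, where 36.1% of all genes were called, and Suclg2, a subunit of succinyl-CoA ligase, fell by 0.77. Pdk4, the kinase that inhibits pyruvate dehydrogenase, rose in IRI vs Control by 4.00 on the log2 scale and in IPC+IRI vs Hemin by 4.27. Of 16 other mitochondrial proteins, such as carriers and import receptors, 3 and 0 were called in the same-day comparisons, against the same 51.0% and 36.0%.

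Of 18 regulators of respiratory genes, 5 were higher and 6 lower in IRI vs Control, which is 61.1% where 51.0% of all genes were called, and 3 were higher and 6 lower in IPC+IRI vs Hemin, where 36.0% of all genes were. Ppargc1a encodes PGC-1 alpha, a coactivator that raises the transcription of respiratory genes. Its levels were 1.29, 1.53, 1.05 and 1.13 in Control and 0.42, 0.27, 0.43 and 0.43 in IRI, against 1.66, 2.12, 2.14 and 2.47 in IRI+Hemin, 2.27, 1.66, 1.69 and 1.33 in IPC+IRI and 1.74, 1.56, 1.39 and 1.12 in Hemin. All 4 IRI arrays lay below the other 16. Ppargc1a fell by 0.86 in IRI vs Control (SE 0.19, adjusted p = 0.00104) and was higher in IRI+Hemin vs IRI by 1.71 ± 0.19 (adjusted p = 4.89e-06) and in IPC+IRI vs IRI by 1.35 ± 0.19 (adjusted p = 3.84e-05). In IPC+IRI vs Hemin the difference of 0.29 was not called.

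Esrra, the estrogen-related receptor alpha, a partner of PGC-1 alpha, was lower in each ischemic group. It had 3.27, 3.37, 3.35 and 3.09 in Control and 3.27, 3.25, 3.13 and 3.36 in Hemin. In IRI it had 2.26, 2.75, 2.52 and 2.18, in IRI+Hemin 2.36, 2.24, 2.19 and 2.71, and in IPC+IRI 3.05, 2.37, 2.55 and 2.37. The 12 ischemic arrays all lay below the 8 others. The falls against Control were 0.84 in IRI (adjusted p = 0.000258), 0.89 in IRI+Hemin (adjusted p = 0.00013) and 0.68 in IPC+IRI (adjusted p = 0.00139), and the difference in IPC+IRI vs Hemin was -0.66 ± 0.16 (adjusted p = 0.00338). Peo1, the helicase of mitochondrial DNA, was lower in both same-day comparisons, and Pprc1, a coactivator related to PGC-1 alpha, was higher in both, by 1.61 and 0.88. Nrf1, the nuclear respiratory factor, was higher by 0.73 in IRI vs Control and had a difference of 0.08 in IPC+IRI vs Hemin. Tfam, a transcription factor of mitochondrial DNA, was not called in either and was higher in IRI+Hemin vs IRI by 0.96.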

How the data were processed

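Signals were read from the 20 deposited scanner files, which per the file headers came from Agilent Feature Extraction, version 9.5.3.1 in the submitters' processing notes. The intensity used is the processed signal, which the authors' software had corrected for background. The authors also deposited a log2 matrix, and its values lay within 0.001 of the log2 processed signal for 100% of 40929 single-spot probes, with 18.1% left blank. It served as an alternative.

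Control spots were left out, spots of a probe and then probes of a gene were averaged, and log2 was taken of the ratio to the 75th percentile of that array. Tests covered a gene if at most 1 of 8 values was missing and at least 3 of 4 arrays of either group were well above background. One limma model (limma 3.58.1, R 4.3.3, the package data.table at version 1.17.8) held the 5 groups of 4 arrays, with 15 residual degrees of freedom, moderated over all genes tested, and Benjamini-Hochberg adjustment within each comparison. A call is an adjusted p below 0.05. The number of arrays limits the precision. The scripts were tested on simulated data.

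The genes named are the core subunits, the isoforms, the called members with the largest changes among those whose groups do not overlap, members below background, and regulators. The members and lists were chosen with earlier results of these data known. Alternatives were normexp correction (offset 50), no or quantile normalization, another percentile, other probe rules, the deposited matrix, other filters, a 1.5-fold minimum, the compared arrays alone, a replicate block and leaving out arrays. Significance analysis of microarrays was not run. Replicate numbers did not pair the arrays, since deviations of arrays with the same number correlated between -0.38 and 0.21 over 40 pairs of arrays. The array annotation gives probe positions in mm9, and promoters are of GRCm38.p6. Current symbols were found for 85 of 86 names.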

Additional observations from a re-analysis of the deposited data

Results flagged for a closer look

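Of 145 sets of 4 arrays, 8 held an array that lay apart from the other 3 by Dixon's 95% criterion, and chance gives about 1 in 20. On Control replicate 2, Sdhb was at 5.53, Cox8b at 2.273 and Atp5s at 0.5883, all above the other Control arrays. Ndufab1 was low on IRI replicate 4, at 2.595, and Ppargc1a on IRI replicate 2, at 0.2681. In IRI+Hemin, Sdha was low on replicate 3, at 3.258, and Sdhb high on replicate 2, at 5.417. Ndufa10 was low on IPC+IRI replicate 2, at 3.553.

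The interaction of Hemin and IRI was called for 3 genes of the mitochondrial and regulator lists outside the members, where 7.79% of all genes were called. The difference was 1.508 for Ppargc1a (limma, adjusted p = 0.00234), -0.7172 for Nrf1 (adjusted p = 0.0492) and -0.5148 for the assembly factor Acad9 (adjusted p = 0.0248). Among the cell type markers, Slc5a12 of the proximal tubule was called too, at 1.27 (limma, adjusted p = 0.0188). IRI and Control shared a scan day, while IRI+Hemin and Hemin were scanned on different days. The interaction therefore cannot be told apart from scan day and slide.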

How the results depend on the processing

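The counts of members depended on the processing. For IRI vs Control, the lower members were 29 with quantile normalization, 28 with the deposited matrix, 14 with the percentile over probes above background, 10 with the mean of log2 probe values, 2 without a filter, with the compared arrays alone or with the replicate block, and 1 with normexp, no normalization or a 1.5-fold minimum. For IRI+Hemin vs Control, higher and lower members were 47 and 1 without normalization and 3 and 4 at 1.5-fold, higher ones were 16 with normexp and 5 with the compared arrays alone, and lower ones 28 with quantile normalization and 21 with the percentile over probes above background. For IPC+IRI vs Control they were 60 and 1 without normalization and 9 and 3 at 1.5-fold, 12 were higher with the deposited matrix and 13 lower with quantile normalization. For IRI+Hemin vs IRI they were 40 and 2 with normexp, 43 and 1 without normalization and 8 and 2 at 1.5-fold, and the lower ones were 8 with quantile normalization, 7 with the percentile over probes above background and 1 with the deposited matrix. For IPC+IRI vs IRI, 18 were higher and 1 lower at 1.5-fold, and the lower ones were 2 with normexp or the mean of log2 probe values and 0 without normalization. For Hemin vs Control they were 73 and 0 without normalization and 12 and 0 at 1.5-fold, and the lower ones were 5 with quantile normalization, 6 with the percentile over probes above background and 1 with normexp or the mean of log2 probe values. For IPC+IRI vs Hemin they were 1 and 5 with the mean of log2 probe values and 1 and 7 with the deposited matrix, and 1 was lower with normexp. The interaction gave 1 call with the mean of log2 probe values and 1 with the replicate block. The cause was not tested.

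Leaving out each replicate in turn gave 2 to 6 lower members in IRI vs Control, 5 to 23 higher and 8 to 12 lower in IRI+Hemin vs Control, 14 to 33 higher and 5 to 7 lower in IPC+IRI vs Control, 14 to 24 higher and 3 to 8 lower in IRI+Hemin vs IRI, 23 to 39 higher and 2 to 5 lower in IPC+IRI vs IRI, 15 to 32 higher and 1 to 3 lower in Hemin vs Control, 2 to 3 lower in IPC+IRI vs Hemin and 0 to 2 calls in the interaction. With both Control replicate 2 and IRI replicate 4 left out, chosen after seeing the data, IRI vs Control had 1 higher and 2 lower members, 25, 36 and 35 were higher in IRI+Hemin, IPC+IRI and Hemin vs Control, 9 were lower in IRI+Hemin vs IRI, and the interaction gave 3 calls.

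Of the called values of single members, 13 changed direction, 9 without normalization and 4 with the deposited matrix. None of the changed values was called, and their lowest adjusted p was 0.179 (limma). Without normalization the median of all genes was 0.38 in IRI+Hemin vs Control, 0.35 in IPC+IRI vs Control and 0.62 in Hemin vs Control. There, Ndufv3 was 0.026, Cox4nb 0.112, Ndufs8 0.031, Sdha 0.088 and Sdhd 0.085 in the first of these, Sdhc 0.094, Atp5d 0.049 and Atp5sl 0.105 in the next, and Sdha 0.229 in the last. With the deposited matrix Atp5j2 was -1.36 in IRI+Hemin vs Control, -0.975 in IRI+Hemin vs IRI and -2.86 in Hemin vs Control, and Atp5sl was 0.113 in IPC+IRI vs Hemin. In the same order, limma gave these values an adjusted p of 0.501, 0.652, 0.179 and 0.893. The arrays share only replicate numbers, and the replicate block left 2, 17, 26, 23, 38, 21 and 3 members called in IRI vs Control, IRI+Hemin vs Control, IPC+IRI vs Control, IRI+Hemin vs IRI, IPC+IRI vs IRI, Hemin vs Control and IPC+IRI vs Hemin. The slide could not be fitted as a random block, because each group had a slide of its own, and was not run. Cox7b2 and Cox8c had no signal above background.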
